A study of Mus musculus with 15 samples.

Results

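The genes described here encode splicing factors of 3 classes, measured in mouse cerebellum. They were chosen by symbol: SR genes (Srsf and a number), genes of the U2-related splice site machinery (Sf3a, Sf3b and U2af) and heterogeneous nuclear ribonucleoprotein genes (Hnrnp and a letter), each with a mean of at least 1 CPM (counts scaled to the size of a library, so that libraries can be compared) over 15 libraries. 43 of the 24420 gene symbols in the count table met the rule, 11 SR, 12 U2-related and 20 hnRNP genes. No symbol of these families was lost to the CPM minimum, and all 43 were among the 16808 genes tested.

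Pre-mRNA splicing removes introns in the nucleus. SR proteins bind exons and, as a rule, help the spliceosome to recognise them. The U2AF pair reads the 3′ end of the intron, after which U2 snRNP, with its SF3A and SF3B subunits, settles on the branch point. hnRNP proteins coat the nascent transcript and often oppose SR proteins. ATXN1, the protein expanded in spinocerebellar ataxia type 1, is reported to bind the splicing factors U2AF2 and RBM17, and protein kinase A is a reported kinase of ATXN1. The question put to the data was whether the RNA of splicing factor genes differs between the groups; the use of exons cannot be read from counts per gene.

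There were 3 groups of 5 libraries of cerebellar total RNA. WT was wild type, strain FVB/nJ, at 9 weeks of age. 82Q carried Atxn1[82Q], on the same strain and at the same age. 82Q_M120A had the genotype Atxn1[82Q],CalphaLoxM120A on the strain mix c57Bl/6J:FVB/nJ at 8 weeks, so it carried the Atxn1 allele as well as an altered Cα, the catalytic subunit of protein kinase A that Prkaca encodes. The labels name no promoter or Cre for either allele, and the series text calls the Atxn1[82Q] mice a knockin. In each comparison with 82Q_M120A the kinase allele, strain and age cannot be told apart, and no group carried the kinase allele alone. The labels do not say that the samples of a group came from separate animals, so the spread behind each p-value is that of these samples and may be technical. A library is named by its group and the order of its column.

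Depth ran from 38.3 to 99.4 mega counts per library. Atxn1 was at 46.4 to 62.2 CPM in WT, 54.1 to 58.6 CPM in 82Q and 50.6 to 55.8 CPM in 82Q_M120A, ranges that overlap and that do not check the repeat length. Prkaca was at 164 to 173 CPM in WT, 158 to 173 CPM in 82Q and 138 to 150.1 CPM in 82Q_M120A. The RNA is from whole cerebellum, where fewer cells of a type and less RNA per cell cannot be told apart. All 10 Purkinje cell markers tested were lower in both groups with the Atxn1 allele than in WT, and their summed level was 10331 to 11669 CPM in WT, 4050 to 4976 CPM in 82Q and 4030 to 5312 CPM in 82Q_M120A. Summed oligodendrocyte markers ran from 5006 to 6006, 6354 to 7701 and 7116 to 7923 CPM, and microglia markers from 83 to 95, 142 to 153 and 137 to 163 CPM in the same order of groups. Granule cell markers summed to 5161 to 5900, 5436 to 5986 and 5979 to 6461 CPM. At an edgeR adjusted p under 0.05, 4 of 8 granule cell markers were higher and 1 lower in 82Q_M120A against WT. Of 8 Bergmann glia and astrocyte markers 3 were higher and 3 lower there, and of 8 microglia markers 6 and 1. In 82Q against WT these counts were 1 and 0, 4 and 3, and 8 and 0. Of all tested genes 36.4% and 18.7% passed in the same order. The part of these shifts in the results below was not tested. Choroid plexus markers summed to between 23.5 and 2862 CPM and varied by library in every group.

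Levels of splicing factor RNA differed between genes and, for most, varied little within groups. Per kilobase of exon, which allows levels of different genes to be compared, Hnrnpa2b1 had the highest mean over the 15 libraries, 78.0 CPM per kb (69.6 to 89.5). Its protein binds purine-rich RNA and takes part in RNA transport. Srsf5 followed at 75.0 CPM per kb, then Srsf2 at 69.4 and Srsf1 at 68.1. The ranges of these 4 genes over the libraries overlap, so their order is not separated from their spread. The class medians were 27.0 CPM per kb for SR, 16.4 for U2-related and 36.7 for hnRNP genes. Srsf12 at 5.03, Hnrnph3 at 4.93 and Hnrnpr at 4.55 CPM per kb were low, and Hnrnpa1 was the lowest at 2.28 CPM per kb.

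**Figure D1:**
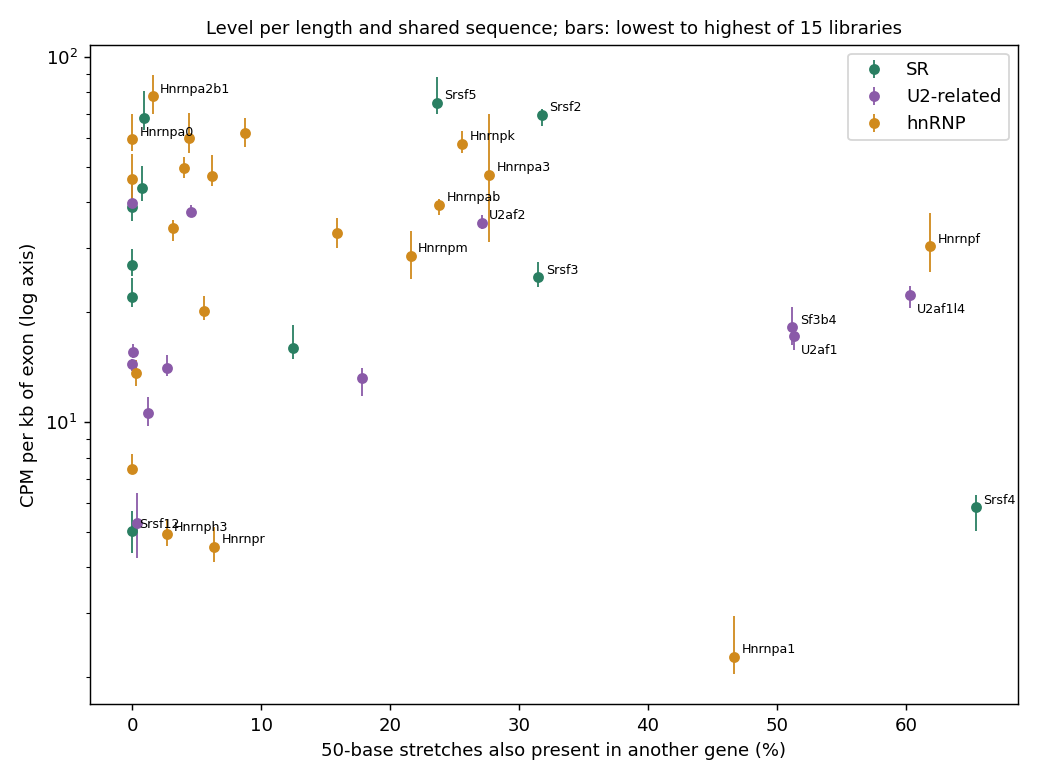
Mean level of each of the 43 genes in CPM per kb of exon (log axis; bars, lowest to highest of 15 libraries) against the percentage of its transcript 50-base stretches that also occur in another annotated gene. Hnrnpa1 lies lowest, at 2.28 CPM per kb with 46.7% shared, and Srsf4, Hnrnpf and U2af1l4 have over 60% shared.

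Hnrnpa1, the lowest per kilobase, ran from 6.43 to 9.31 CPM over the libraries, and its sequence is given beside this level. Of the 50-base stretches in its GENCODE M21 transcripts (mm10), 46.7% also occur in other genes, 19 of them pseudogenes. The start of the coding sequence is shown because reads from it cannot be placed by sequence alone: 90 bases of the gene on chromosome 15 (103240432 to 103246692, plus strand) stand beside the same stretch of the processed pseudogenes Gm10052 on chromosome 9, Gm8652 on chromosome 6 and Hnrnpa1l2-ps2 on chromosome 15, 5′ to 3′, with bases that differ from the gene in capitals.
Hnrnpa1: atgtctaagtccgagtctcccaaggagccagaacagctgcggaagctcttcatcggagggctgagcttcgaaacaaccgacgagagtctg
Gm10052: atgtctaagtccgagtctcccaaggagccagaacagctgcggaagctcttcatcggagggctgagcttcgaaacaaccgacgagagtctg
Gm8652: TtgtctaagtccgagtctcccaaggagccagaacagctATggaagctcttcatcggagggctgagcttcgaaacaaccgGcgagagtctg
Hnrnpa1l2-ps2: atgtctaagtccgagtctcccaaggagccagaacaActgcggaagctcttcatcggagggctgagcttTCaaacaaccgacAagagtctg
Gm10052 has 0 mismatches to the gene over these 90 bases, and the other two have 4 each. Gm10052 is a row of the count table with a pooled level of 0 CPM. The sources used here do not give how reads with several positions were counted, so the level of Hnrnpa1 is uncertain, as are differences in it. Srsf4 (65.4% of stretches shared) was at 5.85 CPM per kb, Hnrnpf (61.9%) at 30.3 and U2af1l4 (60.3%) at 22.3. U2af1 (51.3%) was at 17.2 and Sf3b4 (51.2%) at 18.2 CPM per kb. The part of shared sequence in the level of Hnrnpa1 was not tested.

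Hnrnpa3, a close relative of Hnrnpa1, shows the same kind of sequence and the widest spread of the 43 genes. Its 50-base stretches are shared for 27.7%, with 41 pseudogenes among the 46 other genes. The first 90 coding bases of the gene on chromosome 2 are set beside those of the pseudogene Gm11847 on chromosome 4, which differs at 1 base, in capitals.
Hnrnpa3: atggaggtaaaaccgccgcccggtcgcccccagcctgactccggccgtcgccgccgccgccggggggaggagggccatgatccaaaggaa
Gm11847: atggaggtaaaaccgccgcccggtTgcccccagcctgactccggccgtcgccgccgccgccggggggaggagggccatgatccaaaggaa
Hnrnpa3 was at 258, 217, 175, 168 and 293 CPM in the WT libraries. The 82Q libraries had 296, 280.1, 378, 267 and 324 CPM, and the 82Q_M120A libraries 214, 260.2, 228, 179.8 and 312 CPM. In WT, 4 of 5 libraries lie below every 82Q library, while WT-5 lies among them, and 82Q_M120A overlaps both groups. The mean coefficient of variation within groups was 19.8% for Hnrnpa3, against a median of 4.37% over the 43 genes. Its log2 fold change in 82Q against WT was 0.48 ± 0.178 (SE), and it did not pass the test (edgeR adjusted p = 0.0842). Without WT-5 the log2 fold change was 0.60 with an edgeR adjusted p of 0.0366, and DESeq2 called it with all libraries.

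The other splicing factor genes were among the steadier genes of the table. Within groups, 39 of 43 had a spread below the median of all tested genes and 19 were in the lowest 25%. Of the 16808 tested genes, 11083 were at or above the level of the lowest of the 43, and the rest had fewer counts. The spread was not compared with that of genes of similar level. Sf3b2, which encodes a core SF3B subunit, was the steadiest of the 43, with a coefficient of variation of 1.60%. Its 15 libraries ran from 252 to 269 CPM. Only Hnrnpa3, Hnrnpf and Hnrnpa1 exceeded 8%, genes that share sequence with pseudogenes. So do 24 of the 43 genes, by at least 1 stretch, among them steady ones such as U2af1 (51.3% of stretches shared, coefficient of variation 3.45%) and U2af2 (27.1% and 2.13%).

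**Figure D2:**
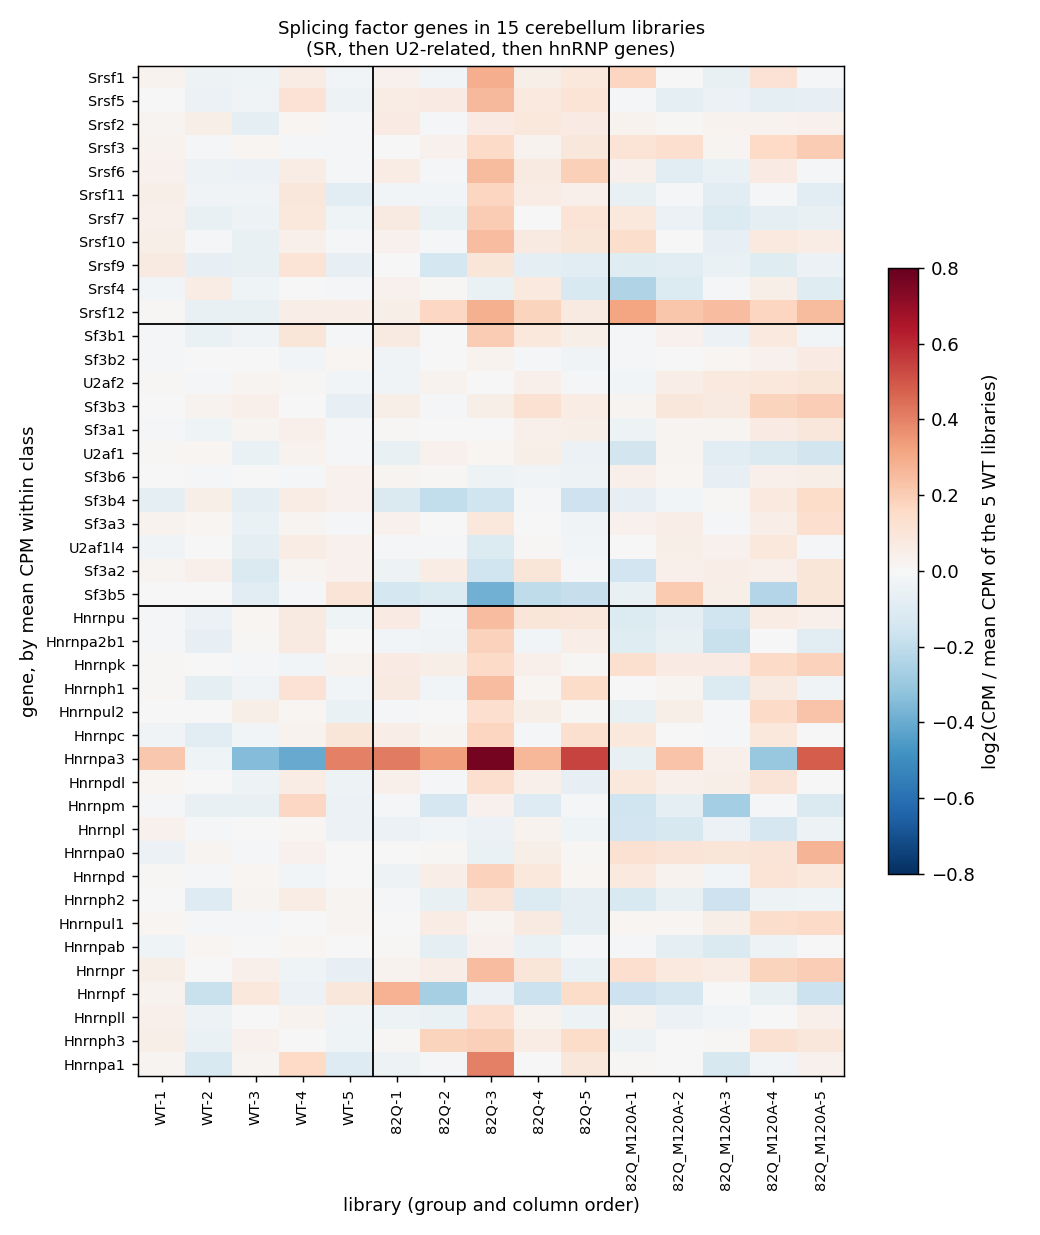
Log2 ratio of each library's CPM to the WT mean for the 43 genes (rows, by class and level) in 15 libraries (columns). Most cells are pale, Hnrnpa3 swings most, Srsf12 is above the WT mean in all 10 libraries with the Atxn1 allele, and 82Q-3 forms a red column through the SR and hnRNP rows.

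Against WT, 82Q had 1 splicing factor gene called of 43, or 2.33%, where 18.7% of all tested genes were called. A call is an adjusted p under 0.05 in edgeR's quasi-likelihood test, with Benjamini-Hochberg adjustment over 16808 genes. The called gene, Srsf12, was higher; 8.63% of all tested genes were called higher and 10.1% lower. At an unadjusted edgeR p under 0.05 there were 7 of 43 genes, beside 5171 of 16808 tested genes. DESeq2 called 5 (11.6%, 3 higher and 2 lower) beside 20.9% of all genes, and limma-voom called 1 beside 18.1%. Scaled by library size alone, edgeR called 17 of 43 (39.5%), all 17 higher, beside 25% of all genes, so that the share of the 43 is then above that of all genes. That scaling moves the median log2 fold change of all genes against WT from 0.01 to 0.06. The median log2 fold change was 0.03 over the 43 genes and 0.01 over all tested genes. For 40 of 43 genes, or 93.0%, the 95% interval of the fold change lay within 1.2-fold either way; of all tested genes 53.9% did so, and of the 11083 tested genes at or above the level of the lowest of the 43, 76.9% did. The exceptions were Hnrnpa1, Hnrnpa3 and Sf3b5. By estimate, 1 of 43 genes (Hnrnpa3) was beyond 1.2-fold, against 18.2% of all tested genes. Of the 11083 genes at or above the level of the lowest of the 43, 937 were.

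82Q_M120A against WT gave 8 called splicing factor genes of 43, or 18.6%, beside 36.4% of all tested genes. Hnrnpa0, Hnrnpk, Hnrnpr, Sf3b3, Srsf12 and Srsf3 were higher, and Hnrnpl and U2af1 lower. Among all tested genes 18.6% were called higher and 17.8% lower. With library size alone as the scaling, 15 were called (34.9%), all 15 higher and 0 lower, beside 40.2% of all genes. The interval lay within 1.2-fold for 40 genes, or 93.0%. Of all tested genes 47.4% did so, and 68.2% of those at or above the level of the lowest of the 43. An estimate beyond 1.2-fold was found for 0 of 43 genes, compared with 28.3% of all tested genes. Of the 11083 genes at or above the level of the lowest of the 43, 1718 had one. The exceptions by interval were Hnrnpa3, Hnrnpf and Srsf12.

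82Q_M120A against 82Q gave 4 called of 43, or 9.30%, beside 18.9% of all tested genes. Hnrnpa0, Sf3b4 and Sf3b5 were higher and Srsf5 was lower; among all tested genes 10.3% were called higher and 8.63% lower. DESeq2 called 9 here (20.9%), 3 higher and 6 lower, beside 21.6% of all genes, so that the shares then hardly differ. Scaling by library size alone gave 5 (11.6%), 3 higher and 2 lower, beside 19.1% of all genes. The interval lay within 1.2-fold for 39 genes, or 90.7%. Of all tested genes 55% did so, and 78.2% of those at or above the level of the lowest of the 43. By estimate, 1 gene (Hnrnpa3) was beyond 1.2-fold, against 19.3% of all tested genes. Of the 11083 genes at or above the level of the lowest of the 43, 900 were. The comparisons share libraries, so a gene's values in them are not independent. In all, 11 of the 43 genes were called in at least 1 comparison and 32 in none, and 29 of those 32 had all 3 intervals within 1.2-fold.

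**Figure D3:**
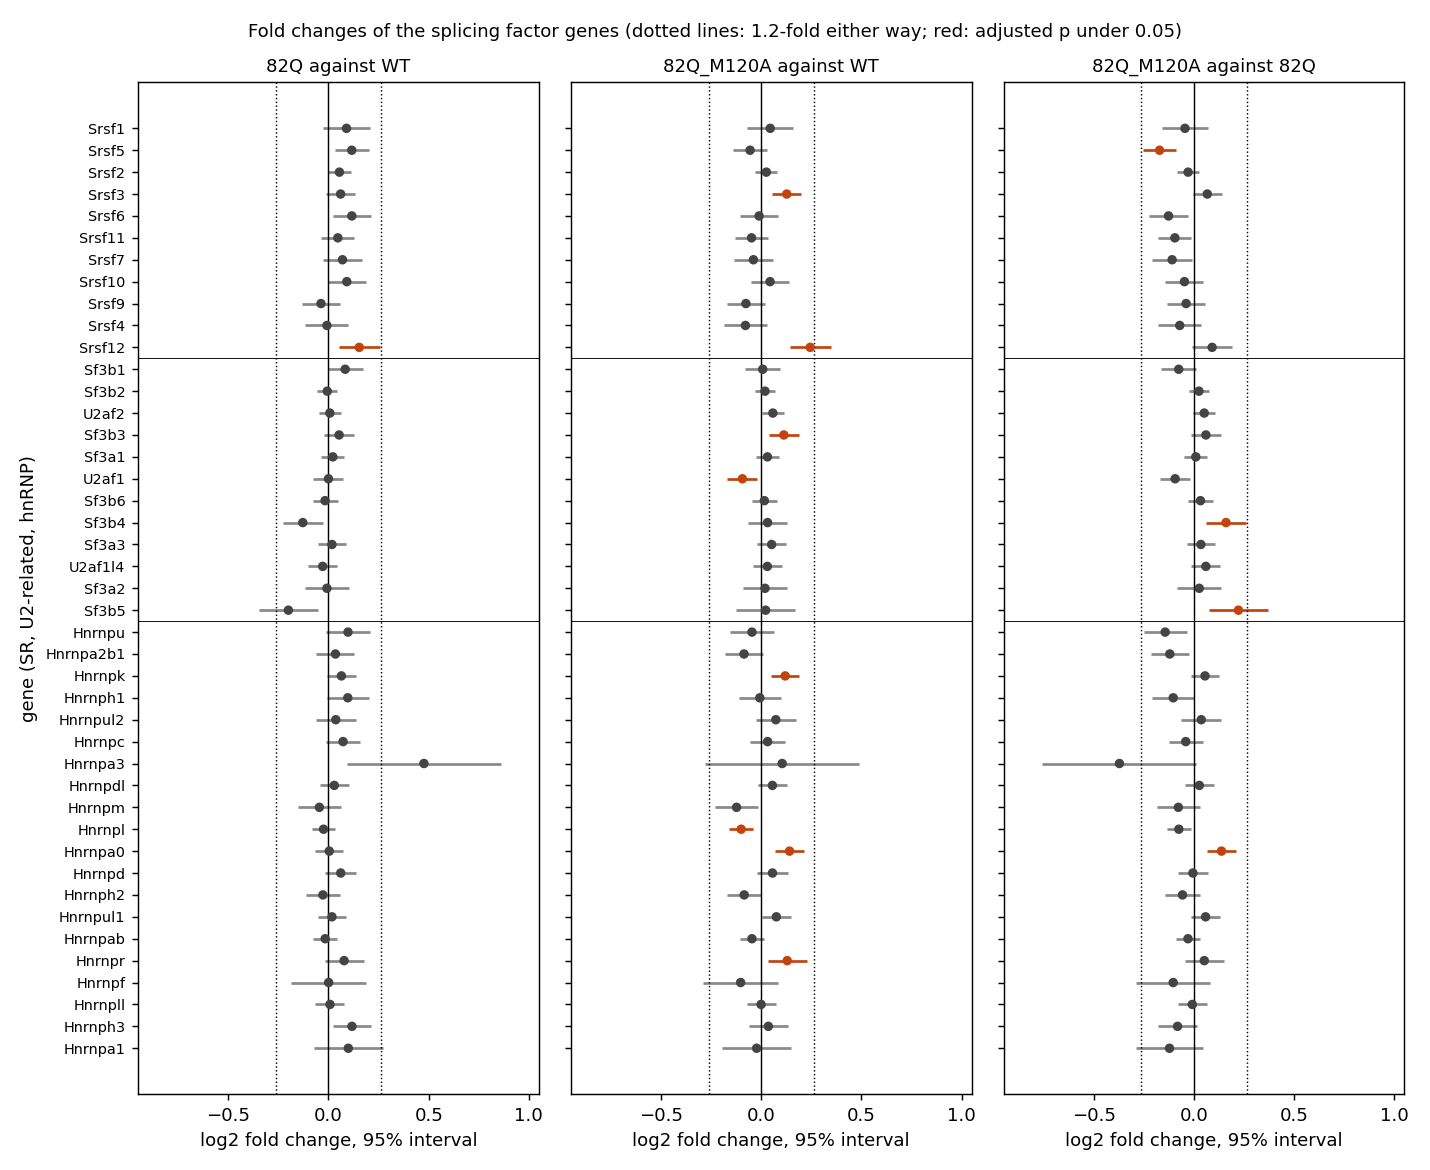
Log2 fold change with its 95% interval for each of the 43 genes in the 3 comparisons; red marks an edgeR adjusted p under 0.05 and dotted lines a 1.2-fold change either way. The called genes lie between -0.17 and 0.24, and Hnrnpa3 has the widest interval in each panel.

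Among the SR genes, Srsf12 had the largest fold change called. The gene lies on chromosome 4 (33208991 to 33233340, plus strand) in mm10, as GENCODE M21 gives it, the source of all gene positions here. It encodes an SR-related protein described as a splicing repressor, and none of its 50-base stretches occurs in another gene. WT libraries had 14.5, 13.8, 13.8, 15 and 15 CPM of Srsf12. In 82Q they had 14.9, 16.2, 17.6, 16.3 and 15.2 CPM, and in 82Q_M120A 17.9, 16.8, 17.1, 16.2 and 17.2 CPM. All 82Q_M120A libraries lie above all WT libraries, and 4 of 5 82Q libraries do. Srsf12 rose in 82Q against WT by 0.15 ± 0.048 (SE) in log2 fold change (edgeR adjusted p = 0.0335) and in 82Q_M120A against WT by 0.24 ± 0.0483 (edgeR adjusted p = 0.000697), a 1.18-fold change. Between 82Q_M120A and 82Q its log2 difference was 0.09 ± 0.0479 (edgeR adjusted p = 0.207, not called). The call in 82Q against WT was lost without WT-1, WT-2, WT-3, 82Q-2, 82Q-3 or 82Q-4 in turn (edgeR adjusted p from 0.0616 to 0.0935), while the call in 82Q_M120A held under each of 18 alternatives.

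Srsf3, on chromosome 17 (29032628 to 29043373, plus strand), encodes the smallest of the SR proteins, which also serves in mRNA export. Its WT libraries were close together, at 191, 186, 190.1, 186 and 187 CPM. In 82Q it was at 187, 192, 209, 192 and 200.4 CPM, and in 82Q_M120A at 203, 207, 191, 210.1 and 216 CPM. One 82Q_M120A library lies within the WT range and the other 4 above it. Srsf3 rose by 0.13 ± 0.0343 (SE) in log2 fold change in 82Q_M120A against WT (edgeR adjusted p = 0.00738). In 82Q against WT its log2 fold change was 0.06 (edgeR adjusted p = 0.248). Of its 50-base stretches 31.5% occur in other genes, 24.3% in Gm12355, which is annotated as protein-coding.

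For Srsf5, an SR gene with an exon-enhancer-binding product on chromosome 12 (80945504 to 80950507, plus strand), 82Q lay highest. WT libraries had 293, 285, 289, 319 and 287 CPM, 82Q libraries 307, 308, 352, 311 and 318 CPM, and 82Q_M120A libraries 292, 279, 285, 279.9 and 282 CPM. The 82Q and 82Q_M120A libraries do not overlap, whereas WT-4 reaches into the 82Q range. Srsf5 fell by 0.17 on the log2 scale in 82Q_M120A against 82Q (SE 0.0401, edgeR adjusted p = 0.00603), and its 0.12 in 82Q against WT was not called (edgeR adjusted p = 0.0526), though DESeq2 called it. The pseudogene Gm12966 holds 23.6% of its 50-base stretches. Without WT-4 the latter was 0.15 with an edgeR adjusted p of 0.0167, and without 82Q-2 it was 0.13 with an edgeR adjusted p of 0.0487.

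**Figure D4:**
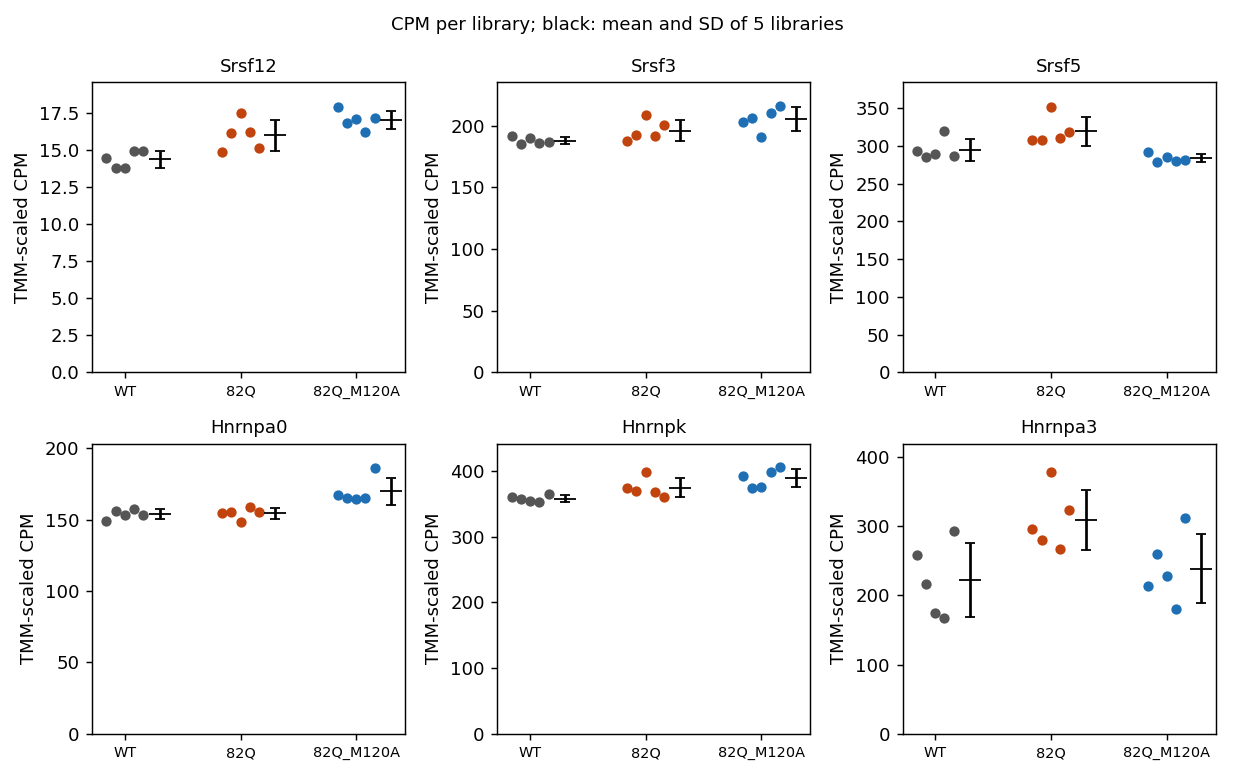
TMM-scaled CPM of 6 splicing factor genes in each library (points; WT grey, 82Q red, 82Q_M120A blue) with the mean and SD of 5 libraries in black; each axis starts at 0. Srsf12 and Hnrnpa0 in 82Q_M120A lie above all WT libraries, Srsf5 is highest in 82Q, and Hnrnpa3 spreads from 168 to 378 CPM.

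The remaining SR genes were not called by edgeR with TMM scaling and all libraries. Scaled by library size alone, Srsf2, Srsf6 and Srsf10 were called higher in 82Q against WT. Of all 16808 tested genes, 9100 had a positive log2 fold change in 82Q against WT and 8256 in 82Q_M120A against 82Q. As a class, 9 of the 11 SR genes had a positive one in 82Q against WT, with a median of 0.07. With library size alone as the scaling, 11 of 11 were positive there. In 82Q_M120A against 82Q 2 of 11 were positive, with a median of -0.05. With 1 library left out these medians ran from 0.04 (without 82Q-3) to 0.10 (without 82Q-2) and from -0.07 (without 82Q_M120A-1) to -0.03 (without 82Q-3). In 82Q_M120A against WT 5 of 11 were positive, beside 8658 of 16808 tested genes. The SR median there was -0.01, which turned to 0.04 with 8 positive when scaled by library size alone. Srsf6, whose product binds exonic enhancers, lay farther from 0 than the class median, at 0.12 in 82Q against WT and -0.13 in 82Q_M120A against 82Q. Its means were 182 ± 5.97 in WT, 197 ± 14.9 in 82Q and 181 ± 8.04 CPM in 82Q_M120A (SD, n = 5 each). The edgeR adjusted p was 0.0846 in 82Q against WT and 0.0589 in 82Q_M120A against 82Q. Without 82Q-2 both were called for Srsf6 (edgeR adjusted p = 0.0266 and 0.0179), and without 82Q_M120A-4 the latter was (edgeR adjusted p = 0.0434). DESeq2 called the latter with all libraries (DESeq2 adjusted p = 0.0388). Srsf7, whose protein carries a zinc knuckle, was called lower in 82Q_M120A against 82Q without 82Q-2 or 82Q_M120A-1 (edgeR adjusted p = 0.0467 and 0.0357). Srsf2, the SR protein that stays in the nucleus, had means of 201 ± 6.47, 209 ± 5.39 and 205 ± 1.39 CPM (SD, n = 5 each).

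Of the 12 U2-related genes edgeR called 0 in 82Q against WT, beside 18.7% of all tested genes. An unadjusted edgeR p under 0.05 was found for 2, beside 5171 of 16808 tested genes. DESeq2 called those 2, Sf3b4 and Sf3b5, beside 20.9% of all genes. The median log2 fold change of the 12 genes was -0.00 in 82Q against WT. It was 0.03 when 82Q_M120A was set against WT and 0.03 when it was set against 82Q. In that order 5, 11 and 10 were positive, beside 9100, 8658 and 8256 of 16808 tested genes. Scaled by library size alone, the first median became 0.05 with 10 positive and the second 0.08 with 11 positive. Without 82Q_M120A-5 the second was 0.01 with 8 positive and the third 0.02 with 9 positive, and without 82Q_M120A-1 they were 0.05 and 0.05. U2af2 encodes the large U2AF subunit, which binds the pyrimidine tract before the 3′ splice site and is one of the reported partners of ATXN1. It had 143, 140.4, 145, 143 and 140.0 CPM in WT, 139, 145, 143, 146 and 141 CPM in 82Q, and 140.2, 147, 150.0, 151 and 152 CPM in 82Q_M120A. WT and 82Q overlap, and 4 of 5 82Q_M120A libraries lie above all WT libraries. Its log2 fold changes of 0.01, 0.06 and 0.05 in 82Q against WT, 82Q_M120A against WT and 82Q_M120A against 82Q were not called (edgeR adjusted p = 0.895, 0.0904 and 0.187). The 95% interval in 82Q against WT ran from -0.05 to 0.06, and 27.1% of its 50-base stretches occur in pseudogenes. Without 82Q_M120A-1, both comparisons with 82Q_M120A were called for U2af2, at log2 fold changes of 0.08 and 0.07 (edgeR adjusted p = 0.0175 and 0.0461).

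U2af1 encodes the small subunit, which reads the AG at the intron end, and lies on chromosome 17 (31647081 to 31658892, minus strand). It had 45.9, 46.1, 43.9, 46.5 and 45.3 CPM in WT and 43.8, 46.7, 46.0, 47.1 and 44.1 CPM in 82Q. In 82Q_M120A it had 41.2, 46.2, 42.9, 42.1 and 41.2 CPM. In 82Q_M120A, 4 of 5 libraries are below all WT and 82Q libraries, and 82Q_M120A-2 is within their range. U2af1 fell by 0.09 on the log2 scale in 82Q_M120A against WT (SE 0.0356, edgeR adjusted p = 0.0475). The call ended without any one of WT-1, WT-2, WT-4, WT-5, 82Q_M120A-1, 82Q_M120A-3, 82Q_M120A-4 or 82Q_M120A-5 (edgeR adjusted p from 0.0562 to 0.101), and 51.3% of the 50-base stretches of U2af1 are shared, chiefly with the pseudogene Gm10232. Without 82Q_M120A-2 the fall against 82Q was called as well (-0.13, edgeR adjusted p = 0.0122), and DESeq2 called it with all libraries (DESeq2 adjusted p = 0.0419).

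Sf3b4 and Sf3b5 had their lowest mean in 82Q, as did 6 of the 43 genes in all. The others were Sf3a2, Sf3b2, Sf3b6 and U2af1l4, which edgeR called in no comparison. SF3B4 contacts the pre-mRNA upstream of the branch point, and SF3B5 is a small subunit of the same complex. Sf3b4 lies on chromosome 3 (96172332 to 96177564, plus strand) and Sf3b5 on chromosome 10 (13005343 to 13009183, plus strand). Sf3b5 had 21.2, 21.2, 19.9, 20.9 and 22.8 CPM in WT, 19.3, 19.7, 16.3, 18.5 and 18.6 CPM in 82Q, and 20.4, 24.6, 21.9, 18 and 22.7 CPM in 82Q_M120A. All 82Q libraries lie below all WT libraries, the only such gene of the 43 in that comparison, where 16.6% of all tested genes do not overlap, 6.81% wholly higher and 9.79% wholly lower. Its log2 fold change of -0.20 in 82Q against WT was not called (SE 0.0701, edgeR adjusted p = 0.0553). Against 82Q it rose in 82Q_M120A by 0.22 (SE 0.0697, edgeR adjusted p = 0.0335). Without 82Q-3, 82Q-4, 82Q-5, 82Q_M120A-2, 82Q_M120A-3 or 82Q_M120A-5 the rise of Sf3b5 was not called (edgeR adjusted p from 0.0568 to 0.0975), and without 82Q-2 the fall in 82Q against WT was (edgeR adjusted p = 0.0482).

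Sf3b4 had 38.2, 41.7, 38.2, 42.0 and 41.4 CPM in WT, 37.2, 35.2, 36.0, 40.0 and 35.9 CPM in 82Q, and 38.5, 39.7, 40.6, 42.5 and 44.7 CPM in 82Q_M120A. In 82Q, 4 of 5 libraries lie below all others, and 82Q-4 is within the range of both other groups. The rise in 82Q_M120A against 82Q was 0.16 ± 0.0466 (SE) in log2 fold change (edgeR adjusted p = 0.023), and it was lost without 82Q-2, 82Q-5, 82Q_M120A-4 or 82Q_M120A-5 (edgeR adjusted p from 0.0517 to 0.0644). In 82Q against WT the value was -0.13 (edgeR adjusted p = 0.0664), called without WT-3 or without 82Q-4 (edgeR adjusted p = 0.0472 and 0.0236). Sf3b4 shares 51.2% of its 50-base stretches, most with the pseudogene Gm7935.

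Sf3b3, which encodes the scaffold subunit of SF3B on chromosome 8 (110810239 to 110846787, minus strand), completed the called U2-related genes. It was at 111, 114, 115, 112 and 107 CPM in WT, 115, 111, 115, 121 and 116 CPM in 82Q, and 113, 119, 117, 126 and 128 CPM in 82Q_M120A. In 82Q_M120A, 4 of 5 libraries exceed all WT libraries. Sf3b3 rose by 0.11 ± 0.0352 (SE) in log2 fold change against WT (edgeR adjusted p = 0.018), a call lost without WT-5, 82Q_M120A-4 or 82Q_M120A-5 (edgeR adjusted p from 0.0509 to 0.0543). The other U2-related genes, Sf3a1, Sf3a2, Sf3a3, Sf3b1, Sf3b2, Sf3b6 and U2af1l4, had log2 fold changes between -0.08 and 0.08 in all 3 comparisons. Sf3b1, the subunit that clamps the branch point helix, had means of 443 ± 18.4, 469 ± 24.6 and 445 ± 15.5 CPM (SD, n = 5 each) in WT, 82Q and 82Q_M120A.

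Of the 20 hnRNP genes edgeR called 0 in 82Q against WT, beside 18.7% of all tested genes. In 82Q_M120A against WT it called 4, or 20%, beside 36.4% of all tested genes. In 82Q against WT 2 had an unadjusted edgeR p under 0.05 (Hnrnpa3 and Hnrnph3), beside 5171 of 16808 tested genes. DESeq2 called 1 (Hnrnpa3) there, beside 20.9% of all genes. Hnrnpa0 was the only gene of the 43 called in 82Q_M120A against both other groups. Its product belongs to the A/B family and binds AU-rich mRNA, it has a single annotated transcript, and it shares none of its 50-base stretches. It lies on chromosome 13 (58125879 to 58128556, minus strand). WT libraries had 149, 156, 153, 158 and 153 CPM, 82Q libraries 155, 155, 148, 159 and 155 CPM, and 82Q_M120A libraries 168, 165, 165, 165 and 186 CPM. Every 82Q_M120A library lies above every other library. The rise was 0.14 ± 0.0337 (SE) in log2 fold change against WT (edgeR adjusted p = 0.00317) and 0.14 ± 0.0336 against 82Q (edgeR adjusted p = 0.00805). Library 82Q_M120A-5 is the highest for Hnrnpa0, and the calls held under all 18 alternatives, its removal included.

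Hnrnpk, on chromosome 13 (58391142 to 58403343, minus strand), encodes a KH-domain protein that binds cytosine-rich RNA and DNA. It had 360.2, 358, 354, 353 and 365 CPM in WT, 375, 370.2, 398, 368 and 361 CPM in 82Q, and 392, 374, 375, 398 and 406 CPM in 82Q_M120A. WT and 82Q_M120A do not overlap, and 82Q overlaps both. The rise in 82Q_M120A against WT was 0.12 ± 0.0338 (SE) in log2 fold change (edgeR adjusted p = 0.00997). Of its 50-base stretches 25.6% occur in other genes, 19.2% in the pseudogene Gm7964. Reads from 5.10% of its exon bases cannot be told from those of Rmi1 on the other strand if counting ignored strand, which is not stated.

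Hnrnpr, on chromosome 4 (136310942 to 136359447, plus strand), has a product that binds RNA in neurons and their axons. It had 99.5, 96.6, 99.1, 94.0 and 91.9 CPM in WT, 98.2, 99.7, 114, 103 and 92.7 CPM in 82Q, and 106, 101, 100.2, 109 and 110.3 CPM in 82Q_M120A. WT and 82Q_M120A did not overlap. It rose by 0.13 ± 0.0463 (SE) in log2 fold change (edgeR adjusted p = 0.036) and lost the call without WT-2, WT-4, WT-5, 82Q_M120A-1, 82Q_M120A-4 or 82Q_M120A-5 (edgeR adjusted p from 0.0551 to 0.0979). Hnrnpl, on chromosome 7 (28808541 to 28822266, plus strand), has a product that binds CA-rich RNA. It went the other way, with 213, 207, 208, 210.5 and 201 CPM in WT, 201, 205, 202, 212 and 203 CPM in 82Q, and 187, 191, 202, 189 and 202 CPM in 82Q_M120A. In 82Q_M120A, 3 libraries are below all WT libraries and 2 are within their range. Hnrnpl fell by 0.10 on the log2 scale in 82Q_M120A against WT (SE 0.0283, edgeR adjusted p = 0.0103). Its -0.08 against 82Q was called without 82Q_M120A-3 or 82Q_M120A-5 (edgeR adjusted p = 0.0454 and 0.0337) and by DESeq2 with all libraries (DESeq2 adjusted p = 0.0383), while edgeR with all libraries gave an adjusted p of 0.0732.

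Groups without overlap were 4 of 43 in 82Q_M120A against WT (Hnrnpa0, Hnrnpk, Hnrnpr and Srsf12, all higher), where 25.3% of all tested genes did not overlap, 12.4% wholly higher and 12.9% wholly lower. In 82Q_M120A against 82Q they were 2 (Hnrnpa0 higher, Srsf5 lower), where 12.1% of all tested genes did not overlap, 6.63% wholly higher and 5.5% wholly lower. The remaining hnRNP genes include the nuclear scaffold gene Hnrnpu, with means of 530.0, 567 and 513 CPM. Its log2 fold change in 82Q_M120A against 82Q was -0.14 (edgeR adjusted p = 0.0587). DESeq2 and limma-voom called it, as did edgeR without 82Q-2, 82Q_M120A-4 or 82Q_M120A-5 (edgeR adjusted p = 0.0263, 0.0308 and 0.0374). As a class, 16 of 20 hnRNP genes had a positive log2 fold change in 82Q against WT. There were 10 when 82Q_M120A was set against WT and 6 when it was set against 82Q. Of 16808 tested genes 9100, 8658 and 8256 were positive in the same order. Scaled by library size alone, 20, 15 and 6 of the 20 genes were positive. With TMM scaling their medians were 0.04, 0.02 and -0.05. Without 82Q-3 the first was 0.01 and the third -0.02, and without 82Q_M120A-5 the second turned to -0.01 with 9 positive.

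Library 82Q-3 stood apart, in these genes and in others. For each library the log2 CPM of a gene was compared with the mean of the other 4 libraries of its group, and the median of this deviation over the 43 genes was 0.11 in 82Q-3. In the other 14 libraries it lay between -0.05 and 0.05. By class the median in 82Q-3 was 0.17 for SR, -0.01 for U2-related and 0.13 for hnRNP genes. Of 43 genes 31 were above the mean of the other 4 libraries, a count not particular to 82Q-3, since WT-4 had 33 and 82Q_M120A-4 had 31. Of all tested genes 49.2% were above it in 82Q-3, 50.1% in WT-4 and 52.2% in 82Q_M120A-4. For 28 genes 82Q-3 was the highest of the 82Q libraries, where 82Q_M120A-5 was the highest of its group for 22 and WT-4 for 20. How often a library was the highest was not counted over all genes. All tested genes had a median deviation of -0.00 in 82Q-3, with an interquartile range of 0.219, the widest of the 15 libraries. In 82Q-3 the 10 Purkinje cell markers had a median deviation of 0.15, the 8 oligodendrocyte markers -0.20 and the 8 choroid plexus markers -0.38; their part in the deviation was not tested. Among lists of other RNA-processing genes the medians there were 0.11 for nonsense-mediated decay, 0.10 for U1 and Sm core and 0.09 for branch point helpers. They were 0.08 for neuronal regulators, 0.07 for SR-related genes and -0.01 for the tri-snRNP and catalytic core. Without 82Q-3, edgeR called 0 of 43 genes in 82Q against WT, beside 16.4% of all genes, and the SR median was 0.04, with 10 of 11 positive. Of the 43, 4 then had an unadjusted edgeR p under 0.05, which was not counted over all genes in that fit. Without that library 3 were called in 82Q_M120A against 82Q (Hnrnpa0, Sf3b4 and Srsf5), beside 16.7% of all genes.

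**Figure D5:**
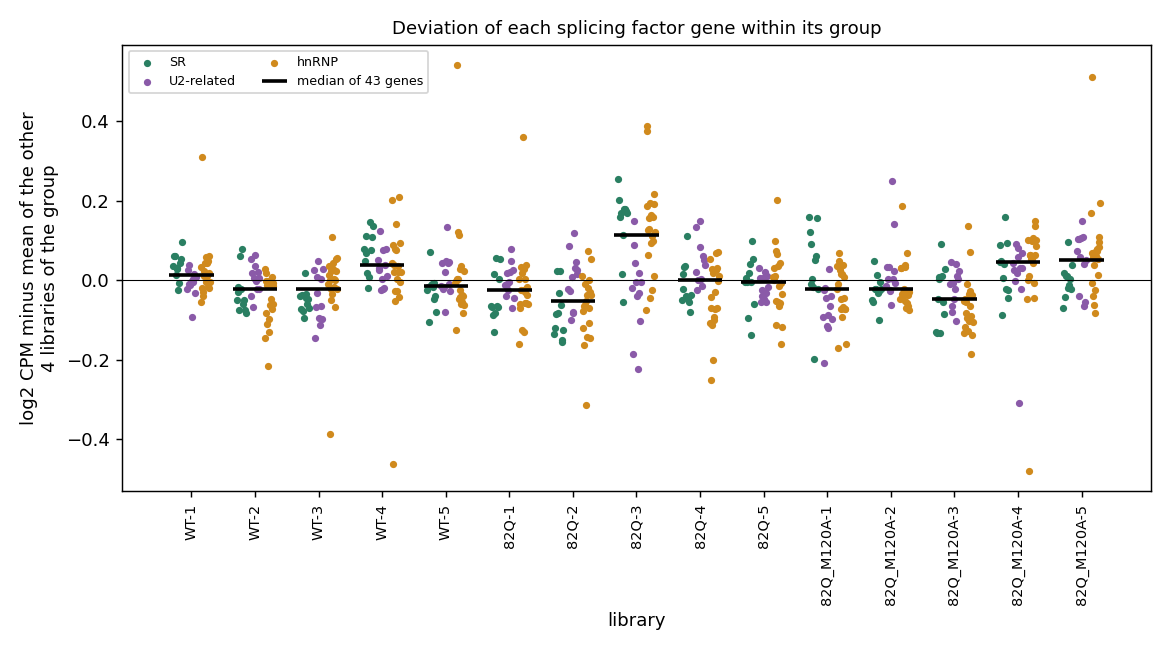
Deviation of each of the 43 genes in each library, as log2 CPM minus the mean of the other 4 libraries of its group, by class; black lines are the medians over 43 genes. The median of 82Q-3 is 0.11, that of the other libraries is between -0.05 and 0.05, and the points farthest from 0 are mostly Hnrnpa3.

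Other genes of splicing and RNA decay were taken from lists. In 82Q against WT 0 of 21 U1 and Sm core genes were called higher and 1 lower, 2 and 0 of 35 tri-snRNP and catalytic core genes, 0 and 0 of 18 branch point helpers, 2 and 0 of 24 SR-related and SR kinase genes, 2 and 7 of 35 neuronal and tissue splicing regulators, and 1 and 0 of 15 genes of nonsense-mediated decay. In 82Q_M120A against WT the counts higher and lower were 3 and 2, 9 and 3, 1 and 1, 3 and 2, 5 and 5, and 3 and 1 in the same order. Against 82Q they were 1 and 1, 3 and 2, 0 and 0, 1 and 3, 4 and 4, and 1 and 1. At an unadjusted edgeR p under 0.05 there were 2 branch point helpers in 82Q against WT, beside 5171 of 16808 tested genes. In 82Q_M120A against 82Q there was 1, beside 5298 of 16808. The share called among neuronal regulators was 25.7%, 28.6% and 22.9%, beside 18.7%, 36.4% and 18.9% of all tested genes, and their median log2 fold changes were 0.01, 0.00 and -0.02.

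Rbm17, the other reported ATXN1 partner and a factor that joins U2-related proteins at the 3′ splice site, did not pass the test. It had 61.6, 57.9, 59.7, 66.9 and 64.7 CPM in WT, 61.4, 58.9, 64.4, 61.1 and 57.9 CPM in 82Q, and 59.3, 61.3, 54.3, 60.4 and 59.1 CPM in 82Q_M120A, and the 3 groups overlap. Its log2 fold changes were -0.03, -0.08 and -0.05 (edgeR adjusted p = 0.656, 0.166 and 0.508).

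In 82Q against WT the smallest adjusted p among the listed genes belonged to Raly, an hnRNP-like gene outside the symbol rule. Raly had 173, 173, 174, 176 and 177 CPM in WT, 159.9, 162, 156, 163 and 156 CPM in 82Q and 149.7, 151, 153, 147 and 152 CPM in 82Q_M120A, 3 groups that do not overlap. It fell by 0.13 on the log2 scale in 82Q (edgeR adjusted p = 0.00046) and by 0.21 in 82Q_M120A against WT (edgeR adjusted p = 1.14e-06). Rbfox1, the neuronal exon regulator, fell by 0.21 in 82Q (edgeR adjusted p = 0.00571), and in 82Q_M120A it was 0.21 higher than in 82Q (edgeR adjusted p = 0.00604), with means of 223, 193 and 223 CPM. Elavl2, a neuronal RNA-binding gene, rose by 0.24 (edgeR adjusted p = 0.00663), Qk, an RNA-binding gene of glia, by 0.17 (edgeR adjusted p = 0.00517) and Smg1, the kinase of nonsense-mediated decay, by 0.24 (edgeR adjusted p = 0.00344).

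Single genes of the catalytic core had larger changes in 82Q_M120A against WT than any of the 43. Crnkl1, a helical-repeat protein of the catalytic spliceosome, had 41.5, 37.6, 40.1, 40.1 and 38.7 CPM in WT, 39.5, 38, 46.3, 42.6 and 43.1 CPM in 82Q, and 25.9, 25.3, 24.2, 25.2 and 24.6 CPM in 82Q_M120A. It fell by 0.66 against WT (edgeR adjusted p = 4.92e-09) and by 0.74 against 82Q (edgeR adjusted p = 5.64e-09) on the log2 scale. Aqr, the intron-binding helicase, rose by 0.47 and 0.38 (edgeR adjusted p = 6.02e-09 and 4.1e-07), with means of 45.3, 48.4 and 62.9 CPM. Lsm6, a ring subunit of U6 snRNP, fell by 0.44 and 0.35 (edgeR adjusted p = 6.14e-09 and 4.4e-07). Rnps1, which joins splicing to the exon junction complex, rose by 0.77 against WT (edgeR adjusted p = 0.000808) with libraries from 62 to 119 CPM in 82Q_M120A, above all WT libraries (46.2 to 59.6 CPM). The neuronal regulators Celf4 and Nova1 went in opposite directions against WT, Celf4 by 0.35 (edgeR adjusted p = 2.8e-06) and Nova1 by -0.24 (edgeR adjusted p = 0.000587). The calls named for Raly, Rbfox1, Elavl2, Qk, Smg1, Crnkl1, Aqr, Lsm6, Rnps1, Celf4 and Nova1 held in all 18 alternatives. The strain mix of 82Q_M120A and its alleles cannot be told apart for these genes.

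Counts per gene add up all isoforms, productive or not. Many SR genes hold a cassette exon that sends the transcript to nonsense-mediated decay and so limits the protein. In GENCODE M21, 9 of 11 SR genes, 4 of 12 U2-related and 10 of 20 hnRNP genes have a transcript annotated to that fate, together 53.5% of the 43 against 26.3% of 15006 tested protein-coding genes. Of the 6 genes that rose in 82Q_M120A against WT, Hnrnpk has 3 such transcripts, Srsf3 has 2 and Hnrnpr has 1, while Srsf12, Hnrnpa0 and Sf3b3 have none. A shift between such isoforms in Srsf3 or Srsf5 would not show in these counts unless their sum changed.

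RefSeq promoters (GRCm38.p6, from 250 bases before to 50 after the start) matched 38 of the 43 genes, with 52 promoters. They were rich in CpG, with a median of 27.5 CpG pairs, against 18 in promoters of tested protein-coding genes. The ETS-type octamer CCGGAAGT, searched on both strands, was in 10 of the 52 promoters (19.2%), belonging to 8 of the 38 genes (Hnrnpd, Hnrnpf, Sf3a1, Sf3a3, Sf3b2, Srsf11, Srsf4 and Srsf5), and in 6.53% of promoters of tested protein-coding genes and 3.89% of all. The cyclic AMP response element TGACGTCA was in 0, against 2.77% of promoters of tested protein-coding genes and 1.79% of all. The octamers TGAATGAA and TGAATGGA, bound by CIC, a partner of ATXN1, were in 0 as well, against 0.876% and 0.749% of promoters of tested protein-coding genes and 1.30% and 1.21% of all. TATAAA was in 9.62%, against 7.73% of promoters of tested protein-coding genes and 13.6% of all. These strings do not contain one another; the CIC octamers share their first letters, and CCGGAAGT holds a CpG. A match is a string of letters and shows no binding. The promoters of Srsf12, Hnrnpa0 and Srsf5 are shown as examples among the 5 genes with a call that held in all 18 alternatives, 1 of the 3 with the ETS octamer, with CCGGAAGT or its reverse complement in capitals. They lie at chr4:33209022-33209321 (plus strand), chr13:58128507-58128806 (minus strand) and chr12:80945249-80945548 (plus strand).
Srsf12: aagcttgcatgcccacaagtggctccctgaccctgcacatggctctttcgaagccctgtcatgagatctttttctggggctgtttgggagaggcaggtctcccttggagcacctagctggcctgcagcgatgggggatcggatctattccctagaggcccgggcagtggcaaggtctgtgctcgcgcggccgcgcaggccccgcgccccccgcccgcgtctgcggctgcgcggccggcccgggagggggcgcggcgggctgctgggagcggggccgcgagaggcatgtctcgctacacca
Hnrnpa0: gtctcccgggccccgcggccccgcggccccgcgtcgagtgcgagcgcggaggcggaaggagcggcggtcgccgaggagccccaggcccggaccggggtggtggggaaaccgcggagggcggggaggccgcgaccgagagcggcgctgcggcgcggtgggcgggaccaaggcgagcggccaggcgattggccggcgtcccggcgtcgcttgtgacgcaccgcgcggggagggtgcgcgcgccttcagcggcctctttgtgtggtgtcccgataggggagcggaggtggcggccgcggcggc
Srsf5: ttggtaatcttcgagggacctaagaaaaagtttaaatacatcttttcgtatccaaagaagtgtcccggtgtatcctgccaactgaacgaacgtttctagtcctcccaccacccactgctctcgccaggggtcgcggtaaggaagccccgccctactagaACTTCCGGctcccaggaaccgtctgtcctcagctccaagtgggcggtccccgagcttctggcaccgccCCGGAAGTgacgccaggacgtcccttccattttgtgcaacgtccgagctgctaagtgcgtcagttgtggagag
Srsf5 holds 2 matches, at -91 and -23 from the start, and the other two promoters do not hold it.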

How the data were processed

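Per the submitters' processing notes, reads were handled with CASAVA 1.8, HISAT2 2.0.1, featureCounts, Subread, R 3.3.3 and DESeq2 1.14.1 on mm10. The sources used here give neither the annotation, nor the strand setting, nor how reads with several positions were treated. The authors deposited whole-number counts per gene symbol for 15 columns, which were used as deposited. The column names show groups without numbering the samples.

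Counts were fitted with edgeR 4.0.16 (limma 3.58.1, R 4.3.3; glmQLFit robust, glmQLFTest, two-sided, TMM factors, filterByExpr defaults, 16808 genes, all 15 libraries, group as the only factor, 12 residual degrees of freedom). Benjamini-Hochberg adjusted p under 0.05 over all tested genes made a call. CPM values are TMM-scaled. The standard error is the absolute log2 fold change over the square root of F, and 95% intervals follow from it. The script was checked on simulated data. As alternatives, the calls were repeated at adjusted p under 0.01, with each library left out in turn, in pairs of groups fitted alone, with RLE factors or library sizes in place of TMM, without the filter or with a floor of 1 CPM on the mean, and with limma-voom or DESeq2 1.42.0.

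The 43 genes and the lists were chosen with earlier results of these data known. Per-library values are given for called members in order of adjusted p, for U2af2 and for Rbm17; of each list up to 4 called genes with the smallest adjusted p could be named. Hnrnpa1, Hnrnpa3, Hnrnpu, Sf3b2 and Srsf6 were chosen after their values were seen. Exon lengths, shared 50-base stretches and coordinates are from GENCODE M21, and promoters from RefSeq.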

Additional observations from a re-analysis of the deposited data

Results flagged for a closer look

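In each group of 5 libraries, the highest or lowest value was tested for its gap to the next against the range, with a limit that chance passes in about 1 of 20 groups. Of 129 gene and group combinations 11 passed. Library 82Q-3 held 3 of them, high for Srsf5 (352 CPM) and Hnrnpa1 (9.31 CPM) and low for U2af1l4 (34.1 CPM). WT-4 held 2, high for Srsf5 (319 CPM) and for Hnrnpm (265 CPM), a gene whose product binds G- and U-rich RNA. Sf3a2, an SF3A subunit gene, was low in WT-3 (32.3 CPM) and in 82Q_M120A-1 (31.6 CPM). Srsf2 was low in 82Q-2 (200 CPM) and in 82Q_M120A-2 (203 CPM), in groups that otherwise spread little. Hnrnpa0 was high in 82Q_M120A-5 (186 CPM), and Sf3b6, whose product contacts the branch point, was low in 82Q_M120A-3 (39.3 CPM).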

How the results depend on the processing

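Of the 43 genes, 1 was called comparing 82Q with WT, 8 comparing 82Q_M120A with WT and 4 comparing 82Q_M120A with 82Q. In the same order the counts were 5, 8 and 9 with DESeq2, 17, 15 and 5 with library size only, 2, 8 and 5 with a floor of 1 CPM on the mean, 3, 7 and 3 in fits of only the groups compared, and 0, 4 and 2 at adjusted p under 0.01. Library size only moved the median log2 fold change of all genes against WT to 0.06 in both comparisons, and all its calls there were higher. All genes were called at 18.7%, 36.4% and 18.9% with TMM, 20.9%, 38% and 21.6% with DESeq2 and 25%, 40.2% and 19.1% with library size only, so the lower share of the 43 ended with library size only in the first comparison and was nearly gone with DESeq2 in the third. RLE factors gave 1, 8 and 4, beside 18.7%, 36.5% and 18.9% of all genes. With limma-voom there were 1, 8 and 5, beside 18.1%, 35.9% and 19.3%, and with no low-count filter 1, 7 and 4, beside 13.8%, 28.1% and 14.2%. The floor of 1 CPM gave 21.8%, 40% and 20.8% of all genes. Fits of only the groups compared gave 20.9%, 35.7% and 14.7%, and adjusted p under 0.01 gave 10.8%, 24.2% and 9.79%. Leaving out 1 library gave 0 to 3, 5 to 8 and 2 to 6, beside 15.3% to 17.9%, 32.4% to 35.8% and 15.2% to 19.1% of all genes. No called gene changed direction. In 82Q_M120A against WT, calls of Hnrnpa0, Hnrnpk, Srsf12 and Srsf3 held in 18 of 18 alternatives, as did Hnrnpa0 and Srsf5 against 82Q. The call of Srsf12 in 82Q was lost in 7, of U2af1 in 12, of Sf3b5 in 8, of Hnrnpr in 7, of Sf3b4 in 5, of Sf3b3 in 4 and of Hnrnpl in 2. Except for the stricter threshold, the cause was not tested. No paired analysis was possible because the count columns carry no replicate number. At least 1 50-base stretch is shared with a pseudogene in 24 of the 43 genes. Among them are Hnrnpa1, Hnrnpa3, Hnrnpf, U2af1, U2af2, Sf3b4, Srsf3, Srsf5 and Hnrnpk, but also Sf3a1, with 0.0821% of its stretches. Srsf4 (65.4%), U2af1l4 (60.3%), Srsf2 (31.8%), Hnrnpab (23.8%) and Hnrnpm (21.6%) share stretches only with genes that are not pseudogenes. How far shared sequence limits each gene was not tested. The lowest count of any of the 43 in a library was 245, of Hnrnpa1.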
